A study of Mus musculus with 6 samples.

Results

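The collagen genes of the embryonic mouse lower jaw were described in 6 RNA libraries, each made from the distal mandible of 1 embryo collected at E10.75, about midway through gestation. Members were all rows of the 6 expression files whose symbol is Col, a type number, the letter a and a chain number, which gave 44 of 21827 genes. They were sorted by known structure and tissue into 8 fibrillar, 7 cartilage and 9 basement membrane genes, with 20 of other types. The series holds 3 litters, and each gave 1 library labelled mutant, Msx1f/f;Msx2f/f;Rosa26mTmG/+;Hand2-Cre, and 1 labelled control, Msx1f/+;Msx2f/f;Rosa26mTmG/+;Hand2-Cre. All 6 embryos therefore carried Hand2-Cre, a recombinase under Hand2 regulatory sequence that acts in the distal arch, 2 floxed copies of Msx2 and 1 copy of the mTmG reporter. The control genotype keeps 1 unfloxed copy of Msx1, and no embryo had both Msx1 and Msx2 free of floxed copies. Tissue was cut out by its reporter fluorescence, with no cell sorting described.

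Msx1, the homeobox gene whose floxed dose separates the labels, went against them in litters 2 and 3. It was at 1.90, 78.8 and 73.3 TPM (a relative level scaled to transcript length and to the library total) in the mutant-labelled libraries (litters 1, 2 and 3), and at 84.1, 2.61 and 1.99 TPM in the control-labelled ones. In each litter 1 library lay under 10 TPM and its littermate over 50 TPM. The former is called the low Msx1 library, which carries the mutant label in litter 1 and the control label in litters 2 and 3. Differences along Msx1 are given litter by litter, as a description without a test, and tests follow the labels as deposited.

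Markers of jaw mesenchyme were high in every library. Hand2, Dlx5, Twist1, Prrx1, Prrx2, Pdgfra and Alx4 summed to between 945 and 1033 TPM per library. Other cells were present too. The 10 epithelial markers, among them Epcam and Trp63, summed to 144 to 166 TPM, and the 8 endothelial markers, among them Cdh5 and Pecam1, to 80.9 to 94.3 TPM. Of the muscle, neuron and glia markers, Myog, Msc, Neurod1 and Foxd3 were listed at 0 in at least 1 library. The 5 osteoblast markers summed to 6.55 to 12.7 TPM, with the early gene Runx2 at 4.96 to 9.22 TPM and Sp7 at 0.771 to 2.26 TPM. Ibsp was listed at 0 in all 6 libraries, whereas Bglap ranged from 0 to 2.02 TPM and Spp1 from 0 to 0.306 TPM. Red blood cell markers summed to 20835 TPM in the mutant-labelled library from litter 1, against 6405 to 9055 TPM in the other 5. In such bulk tissue, fewer cells of a type and less RNA per cell cannot be told apart, and no library's read depth is known.

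Collagens are secreted or membrane-bound proteins whose chains wind around each other into a stiff helix, and that winding needs a glycine at the start of each amino acid triplet. Fibrillar collagens form the rope-like fibres of connective tissue and bone, basement membrane collagens form the sheets under epithelium and around vessels, and cartilage collagens form and coat the thin fibrils of the cartilage matrix. In the first arch, crest-derived mesenchyme makes a loose matrix before cartilage or bone exists.

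The repeat is visible in the coding sequences. It is part of what makes a protein a collagen, and the groups were set by known structure. Its presence and its length by group are therefore a description, not a test. Coding sequences were read from GENCODE M21 transcripts (GRCm38), the longest complete one per gene, found for 44 of 44 members. The stretches that follow start at the first triplet of the longest unbroken repeat and show a fibrillar, a second fibrillar, a microfibril and a membrane-bound chain whose levels are described further on. Capitals mark glycine codons.
Col1a2, codons 97 to 123: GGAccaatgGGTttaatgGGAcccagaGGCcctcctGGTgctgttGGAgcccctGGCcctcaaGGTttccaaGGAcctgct
Col3a1, codons 164 to 190: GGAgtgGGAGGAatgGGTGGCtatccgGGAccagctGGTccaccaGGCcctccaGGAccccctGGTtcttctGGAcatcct
Col6a3, codons 1558 to 1584: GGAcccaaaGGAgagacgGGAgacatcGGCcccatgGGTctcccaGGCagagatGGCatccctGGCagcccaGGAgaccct
Col25a1, codons 189 to 215: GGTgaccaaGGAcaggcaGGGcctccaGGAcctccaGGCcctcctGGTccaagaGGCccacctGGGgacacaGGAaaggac
In Col4a1, a basement membrane chain, the repeat stops and starts again. A stretch around 1 such break is shown for contrast, with the break at codons 335 to 340.
Col4a1, codons 323 to 352: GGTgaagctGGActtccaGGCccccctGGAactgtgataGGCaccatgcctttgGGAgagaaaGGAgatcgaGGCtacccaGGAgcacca

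The unbroken repeat was longest in the fibril-forming chains, and its length overlapped among the other classes. Col1a1, Col1a2, Col3a1, Col5a1, Col5a2 and Col5a3 each held 337 to 344 triplets in a row, as did Col2a1, Col11a1 and Col11a2 of the cartilage group with 338 or 339. Col24a1 and Col27a1 held 216 and 217. In the basement membrane group the longest run was 30 to 75 triplets. Col4a1 had its 414 triplets in 18 runs of at least 10, where Col1a2 had 353 in 2 runs. Col9a1, Col9a2 and Col9a3 held 113 and Col10a1 held 61. Among the other types the longest run ranged from 23 triplets in Col26a1 to 113 in Col22a1, with 45 in Col6a3 and 40 in Col25a1. The bar plot of run lengths shows this step between the fibril-forming chains and the rest.

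**Figure D1:**
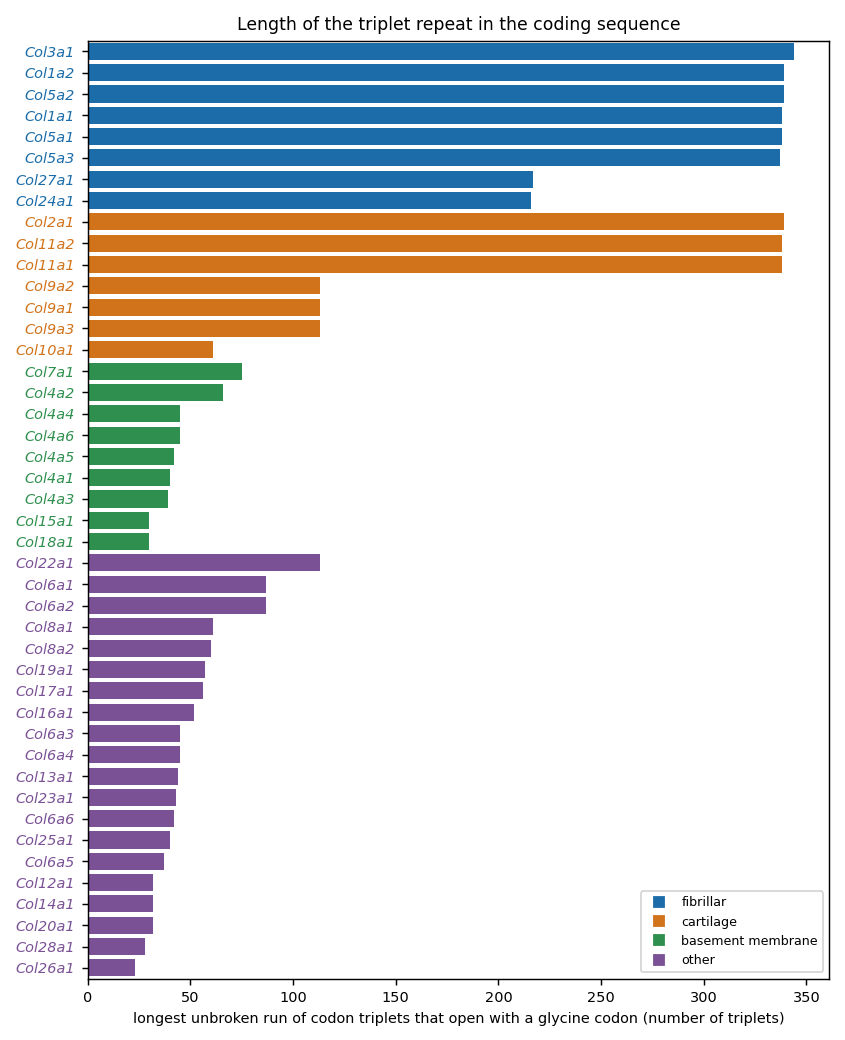
Longest unbroken run of codon triplets that open with a glycine codon (horizontal axis, number of triplets) for each of the 44 collagen genes, coloured by group. The fibril-forming chains of types I, II, III, V and XI sit at 337 to 344, those of types XXIV and XXVII at 216 and 217, and the basement membrane chains at 75 or less.

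Collagen mRNA was dominated by a few genes. The 44 genes summed to 649 ± 38.4 TPM (SD, n = 6), which was 0.0813% to 0.0975% of the listed expression. Fibrillar genes held 36.2% to 38.8% of that sum, cartilage genes 28.8% to 31.1%, basement membrane genes 16.2% to 17.0% and the other types 14.6% to 16.2%. The 5 highest genes (Col3a1, Col2a1, Col1a2, Col26a1 and Col9a1) held 64.0% to 65.0%. In order of mean level they were at 123 ± 9.60, 115 ± 11.4, 73.8 ± 9.73, 54.1 ± 2.35 and 52.7 ± 5.45 TPM (SD, n = 6). Col3a1 and Col2a1 overlapped across the 6 libraries, as did Col26a1 and Col9a1, while every library had more Col1a2 than either of the latter. By mean, 12 genes reached 10 TPM, 16 lay between 1 and 10 TPM and 16 lay under 1 TPM. For 8 genes at least 1 library was listed at 0.

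**Figure D2:**
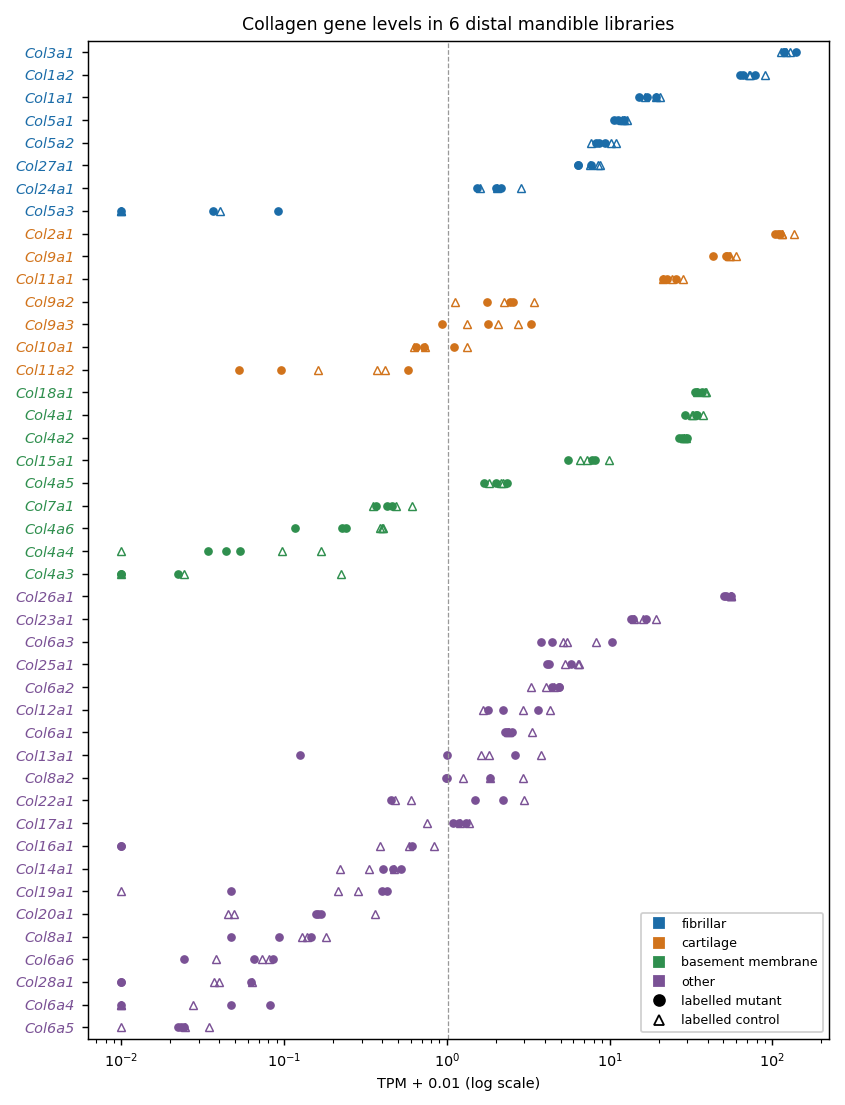
Level of each of the 44 collagen genes (vertical axis, grouped and sorted by mean) in the 6 libraries on a log axis of TPM + 0.01. Filled circles carry the mutant label and open triangles the control label, and the dashed line marks 1 TPM. Circles and triangles interleave for most genes, and the spread widens below 1 TPM.

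Type I and type III collagen, the main fibres of bone and soft connective tissue, were unequal in level. Col3a1, which forms fibrils from a single kind of chain (chromosome 1, 45311538 to 45349706, GRCm38), was at 119, 117 and 139 TPM in the mutant-labelled libraries (litters 1, 2 and 3) and at 129, 113 and 121 TPM in the control-labelled ones. The labelled groups overlapped. Col3a1 was the lower of each pair in the low Msx1 library, by 0.12, 0.06 and 0.20 on the log2(TPM + 1) scale in litters 1, 2 and 3. Between the labels its log2 difference (mutant minus control, here and below) was 0.05 ± 0.09 (SE; limma adjusted p = 0.925).

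Col1a2, the alpha 2 chain of type I (chromosome 6, 4504814 to 4541544), was at 78.8, 63.0 and 65.7 TPM in the mutant-labelled libraries and 73.1, 72.1 and 90.0 TPM in the control-labelled ones. It was higher in the low Msx1 library of each litter, 1.08-fold, 1.14-fold and 1.37-fold, and the low and high libraries overlapped. Col1a1, its partner alpha 1 chain (chromosome 11, 94936224 to 94953042), was at 19.2, 15.1 and 17.1 TPM in the mutant-labelled libraries and 20.3, 16.4 and 19.4 TPM in the control-labelled ones. Its within-litter differences were mixed in sign, -0.08, 0.12 and 0.18 in litters 1, 2 and 3. Type I molecules hold more alpha 1 than alpha 2 chains, yet at the RNA level Col1a2 exceeded Col1a1 in every library, 3.59-fold to 4.63-fold. That ratio was higher in the low Msx1 library of each litter, at 4.10 against 3.59, 4.39 against 4.18 and 4.63 against 3.85. Low and high Msx1 libraries overlapped in it, since the low value of litter 1 lay below the high value of litter 2. The ratio carries the litter order of Col1a2 itself, and no share over other gene pairs was computed. By the labels the log2 difference was -0.18 ± 0.12 for Col1a2 and -0.12 ± 0.13 for Col1a1 (SE; limma adjusted p = 0.760 and 0.837).

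Type V collagen, which starts fibrils and limits their width, was at a lower level. Col5a1 (chromosome 2, 27886425 to 28039514) lay between 10.6 and 12.8 TPM, and Col5a2 (chromosome 1, 45374321 to 45503282) between 7.64 and 10.9 TPM. Col5a1 exceeded Col5a2 in all 6 libraries, 1.18-fold to 1.55-fold. Col5a3, the third chain of the type, reached no more than 0.0821 TPM and was at 0 in 3 libraries. The shorter fibrillar chains Col27a1, a gene of cartilage matrix, and Col24a1 lay at 6.38 to 8.71 and 1.52 to 2.86 TPM. Col24a1 was lower in the low Msx1 library of each litter, at 1.52 against 2.86 TPM in litter 1, 1.60 against 1.99 in litter 2 and 2.01 against 2.14 in litter 3. The gap in litter 3 was small beside the range of the 3 high Msx1 libraries. Its log2 difference by label was -0.12 ± 0.20 (SE; limma adjusted p = 0.909).

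Cartilage collagens were present, beside cartilage markers of unequal level. Col2a1, the main collagen of cartilage (chromosome 15, 97975602 to 98004695), was at 108, 103 and 112 TPM in the mutant-labelled libraries (litters 1, 2 and 3) and at 115, 114 and 136 TPM in the control-labelled ones. Every mutant-labelled library lay below every control-labelled one. The low and high Msx1 libraries overlapped instead, with within-litter differences of -0.09, 0.14 and 0.29 in litters 1, 2 and 3. Its log2 difference by label was -0.17 ± 0.09 (SE; limma adjusted p = 0.727). Sox9, the transcription factor gene that drives Col2a1, was at 25.6 to 32.2 TPM, whereas Acan, the cartilage proteoglycan gene, did not exceed 0.288 TPM and Matn1 and Comp were at 0 in at least 1 library. Of the other cartilage matrix markers, Hapln1 was at 3.37 to 4.72 TPM and Matn3 at 0.257 to 0.690 TPM.

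Type IX collagen, which coats type II fibrils, is built from the products of Col9a1, Col9a2 and Col9a3, and their levels were far apart. Col9a1 (chromosome 1, 24177610 to 24252684) was at 52.4, 51.6 and 43.3 TPM in the mutant-labelled libraries and 59.9, 55.0 and 54.2 TPM in the control-labelled ones. As for Col2a1, the labelled groups did not overlap. Among the 28 members tested, these 2 were the only ones with no overlap, both lower in the mutant-labelled libraries, while 10.4% of all genes tested were separated in that direction and 2.73% in the other. For Col9a1 limma gave a difference of -0.20 ± 0.10 (log2 ± SE; adjusted p = 0.727). Col9a2 lay between 1.12 and 3.41 TPM and Col9a3 between 0.925 and 3.29 TPM. Col9a1 thus exceeded Col9a2 17.1-fold to 49.2-fold and Col9a3 15.7-fold to 56.6-fold. Col9a2 was lower in the low Msx1 library of each litter, at 2.42 against 3.41, 1.12 against 1.75 and 2.23 against 2.53 TPM.

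Of type XI, which lies inside cartilage fibrils together with type II, Col11a1 (chromosome 3, 114030540 to 114220718) was at 21.4 to 28.3 TPM, and the labelled groups overlapped. Col11a2 did not exceed 0.565 TPM. Col2a1 exceeded Col11a1 4.09-fold to 6.37-fold. Col10a1, the collagen of mature, enlarging chondrocytes, was at 0.622 to 1.32 TPM.

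Basement membrane collagens held the steadiest member, Col4a2, with a coefficient of variation of 4.02%. Col4a1 and Col4a2, whose products form the network of nearly all basement membranes, lie head to head on chromosome 8, at 11198423 to 11312826 and 11312805 to 11449287, with starts that overlap by 22 bases. Col4a1 was at 33.9, 29.2 and 34.5 TPM in the mutant-labelled libraries (litters 1, 2 and 3) and at 32.2, 32.6 and 37.4 TPM in the control-labelled ones. Col4a2 was at 27.8, 26.7 and 29.9 TPM in the former and 28.8, 28.5 and 29.4 TPM in the latter. The pair kept a Col4a1 to Col4a2 ratio of 1.17 ± 0.07 (SD, n = 6). Col4a1 was slightly higher in the low Msx1 library of each litter, 1.05-fold, 1.12-fold and 1.09-fold, while Col4a2 was mixed. By label the log2 differences were -0.07 ± 0.10 and -0.04 ± 0.08 (SE; limma adjusted p = 0.894 and 0.925), and both signs turned under median-of-ratios scaling, to 0.0016 and 0.029.

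The tissue-restricted type IV genes were low. Col4a5 lay at 1.69 to 2.33 TPM and Col4a6 at 0.106 to 0.398 TPM. Col4a3 and Col4a4, known from the kidney filter, did not exceed 0.213 and 0.159 TPM. Col18a1, the precursor gene of endostatin (chromosome 10, 77052178 to 77166548), was at 33.4, 34.5 and 37.1 TPM in the mutant-labelled libraries and 39.0, 34.6 and 38.8 TPM in the control-labelled ones. Its relative Col15a1, found around vessels and muscle, had no shared sign. It was at 7.76, 7.23 and 9.89 TPM in the low Msx1 libraries of litters 1, 2 and 3 and at 6.56, 8.09 and 5.54 TPM in their littermates. The endothelial marker sums were 82.4, 88.0 and 88.9 TPM in the former and 86.2, 80.9 and 94.3 TPM in the latter. A relation between the 2 was not tested. Col7a1, the anchoring fibril gene of skin, was at 0.341 to 0.597 TPM.

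Type VI collagen, which forms beaded microfibrils around cells, held the largest single within-litter difference among the members with a mean above 5 TPM, 0.81 on the log2(TPM + 1) scale. Col6a3 (chromosome 1, 90765923 to 90843971) was at 10.3, 4.43 and 3.76 TPM in the mutant-labelled libraries (litters 1, 2 and 3) and at 5.43, 8.26 and 5.14 TPM in the control-labelled ones. The low Msx1 library was the higher of each pair, 1.89-fold, 1.87-fold and 1.37-fold in litters 1, 2 and 3. The low value of litter 3 (5.14 TPM) lay below the high Msx1 library of litter 1 (5.43 TPM), so the 2 kinds of library overlapped across litters. Between the labels the log2 difference was -0.11 ± 0.33 (SE; limma adjusted p = 0.945).

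The partner chains of Col6a3 did not share that pattern. Col6a1 (chromosome 10, 76708792 to 76726168) was at 2.33, 2.49 and 2.28 TPM in the mutant-labelled libraries and 3.34, 2.41 and 2.38 TPM in the control-labelled ones. Col6a2, its neighbour (chromosome 10, 76595762 to 76623630), was at 4.87, 4.89 and 4.42 TPM in the former and 4.08, 4.55 and 3.29 TPM in the latter. Neither had the same order in all 3 litters on the TPM scale. Col6a1 was lower in every low Msx1 library under median-of-ratios scaling and quantile normalization. Col6a3 ran at 4.41, 3.43 and 2.17 times Col6a1 in the low Msx1 libraries of litters 1, 2 and 3, and at 1.62, 1.77 and 1.65 times in their littermates. The ratios of the 3 low Msx1 libraries lay above those of the other 3. Each ratio carries the litter order of Col6a3 itself, and no share of separated ratios over other gene pairs was computed. Col6a4, Col6a5 and Col6a6 did not exceed 0.0757 TPM.

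**Figure D3:**
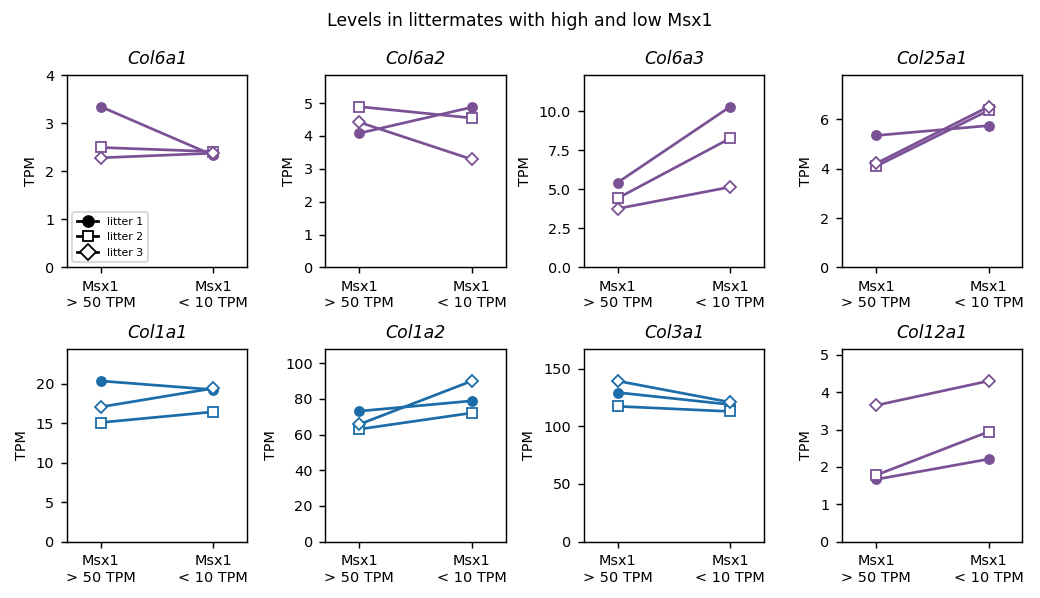
Levels in TPM (vertical axes from 0) of 8 collagen genes in the library with Msx1 over 50 TPM and in its littermate under 10 TPM, with 1 line per litter. The library under 10 TPM carries the mutant label in litter 1 and the control label in litters 2 and 3. All 3 lines climb for Col6a3, Col25a1, Col1a2 and Col12a1, all 3 descend for Col3a1, and those of Col6a1, Col6a2 and Col1a1 cross.

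Membrane-bound collagens included the only tested member whose low and high Msx1 libraries did not overlap. Col25a1, a membrane-bound collagen known from muscle innervation (chromosome 3, 130131501 to 130599877), was at 5.75, 6.36 and 6.52 TPM in the low Msx1 libraries of litters 1, 2 and 3 and at 5.35, 4.10 and 4.21 TPM in their littermates. The gap in litter 1 was narrow, at 1.07-fold, against 1.55-fold in each of the others. Of the 28 members tested, 1 was separated in this direction and 0 in the opposite one, beside 4.36% and 4.95% of all genes tested. By label limma gave Col25a1 -0.32 ± 0.16 (log2 ± SE; adjusted p = 0.727).

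The other membrane-bound types had no shared sign on the TPM scale. Col23a1 (chromosome 11, 51289920 to 51583918) lay at 13.4 to 19.3 TPM, with within-litter differences of -0.01, 0.25 and 0.19 in litters 1, 2 and 3, and was higher in every low Msx1 library under median-of-ratios scaling and quantile normalization. Col17a1, a gene of the anchoring plaques of basal epithelium, lay at 0.745 to 1.36 TPM. Col13a1 had the widest within-litter difference of any member on the log2(TPM + 1) scale, -2.10 in litter 1. There it was at 0.116 TPM in the mutant-labelled library against 3.78 TPM in its littermate. In litter 2 it was the low Msx1 library that was higher, at 1.62 against 0.998 TPM. Its log2 difference by label was -0.70 ± 0.43 (SE; limma adjusted p = 0.751).

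Of the remaining types, Col26a1 (chromosome 5, 136741759 to 136883209) was among the steadiest, at 51.7, 50.5 and 55.5 TPM in the mutant-labelled libraries and 55.4, 55.9 and 55.5 TPM in the control-labelled ones. Col12a1 (chromosome 9, 79598991 to 79718831), which attaches to the surface of fibrils, was at 2.21, 2.94 and 4.30 TPM in the low Msx1 libraries and 1.67, 1.78 and 3.65 TPM in their littermates. Both libraries of litter 3 exceeded all 4 others. Col22a1, known from muscle and tendon junctions, was at 1.48, 0.595 and 2.96 TPM in the low Msx1 libraries and 0.473, 0.446 and 2.20 TPM in their littermates, again with litter 3 highest. Col8a1, Col14a1, Col16a1, Col19a1, Col20a1 and Col28a1 had means under 1 TPM, and Col8a2 lay at 0.973 to 2.91 TPM.

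The spread over the 6 libraries was close to that of other genes of like level. For the 12 members with a mean of at least 10 TPM the median coefficient of variation was 9.07%, from 4.02% (Col4a2) to 14.2% (Col23a1), and over all 6874 genes of that level the median was 10.6%. For the 16 members between 1 and 10 TPM it was 21.7%, from 12.1% (Col4a5) to 77.1% (Col22a1), beside 21.0% over 5200 genes.

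Along Msx1, 9 of the 28 members tested (at least 1 TPM in at least 3 libraries) had the same sign in all 3 litters. Col1a2, Col4a1, Col6a3, Col12a1, Col22a1 and Col25a1 were higher in each low Msx1 library, and Col3a1, Col9a2 and Col24a1 were lower. The 6 higher members (21.4% of those tested) stand beside 10.81% of all 12152 genes, and the 3 lower beside 11.9%. Other scalings kept those 9 signs. Under median-of-ratios scaling the counts were 10 higher and 5 lower, with 12.3% of all genes in either direction. Without litter 1, 14 members were higher and 4 lower in both remaining litters, where 32.0% of all genes were higher and 19.5% lower. The whole transcriptome was offset within litters on the TPM scale, with a median over all genes tested of -0.09 in litter 1, 0.01 in litter 2 and 0.08 in litter 3. The medians of the 28 members were -0.08, 0.13 and 0.18. With median-of-ratios scaling, which sets the median of all genes near 0.002 in litter 1, they were 0.02, 0.12 and 0.09. In litter 1, 5 of 5 tested cartilage genes, 6 of 7 fibrillar genes, 2 of 5 basement membrane genes and 5 of 11 others were lower in the low Msx1 library, as were 7785 of all 12152 genes. In litter 3, 3 of 5 cartilage, 5 of 7 fibrillar, 3 of 5 basement membrane and 8 of 11 other genes were higher, as were 7398 of all genes. No difference between the groups was tested. Median-of-ratios scaling turned 1 of those cartilage genes, 2 fibrillar genes, 1 basement membrane gene and 2 others to higher in litter 1, and left 2 of 5 basement membrane genes higher in litter 3. The low Msx1 library of litter 1 also held the excess of red blood cell markers, whose part in these differences was not tested.

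**Figure D4:**
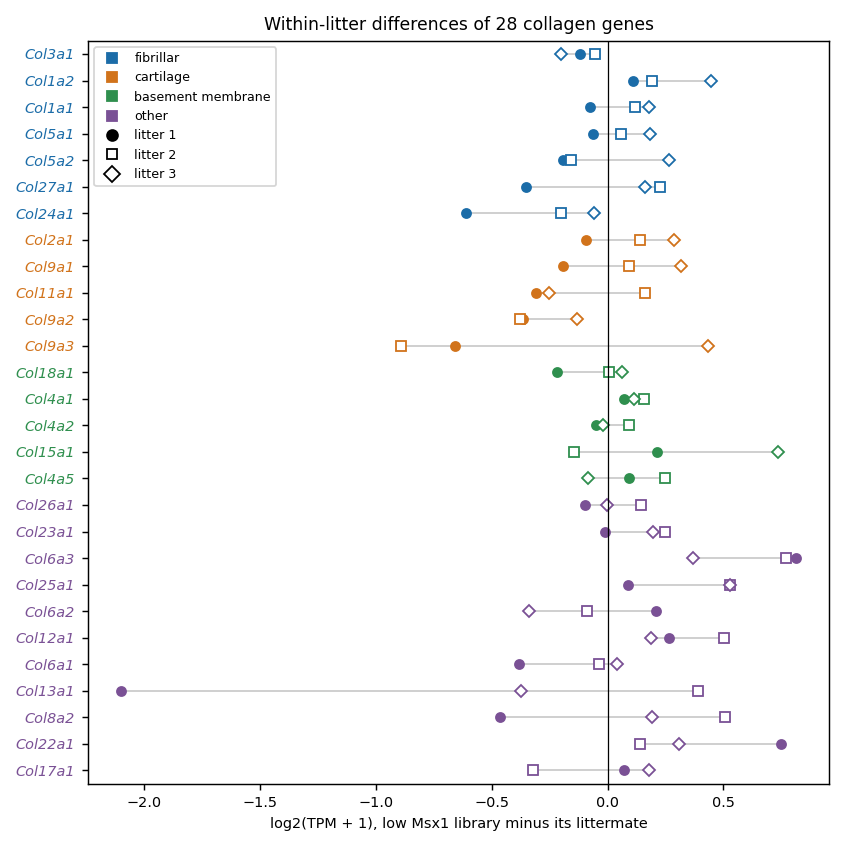
Difference in log2(TPM + 1) between the low Msx1 library and its littermate (horizontal axis) for the 28 collagen genes tested, with 1 symbol per litter and colours by group. All 3 symbols lie right of 0 for Col6a3, Col25a1, Col1a2, Col12a1, Col22a1 and Col4a1, and left of 0 for Col3a1, Col9a2 and Col24a1.

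By the labels as deposited, no collagen gene passed the test. Limma called 0 of 28 members at an adjusted p of 0.05, beside 0% of the 12152 genes tested in either direction. At an unadjusted p under 0.05 it called 0 members, beside 1.90% of all genes that were higher under the mutant label and 4.82% lower. The 3 members with the smallest p were Col9a1, Col25a1 and Col27a1, and for Col27a1 limma gave -0.25 ± 0.13 (log2 ± SE; adjusted p = 0.727). In sign, 23 of the 28 were lower under the mutant label, and they had a median of -0.11, beside 65.4% of all genes and a median of -0.06. Median-of-ratios scaling left 20 of 28 lower, beside 49.5% of all genes. Since Msx1 contradicts the label in 4 of the 6 libraries, this comparison does not contrast low with high Msx1.

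The comparison table that the authors deposited does not name its direction, and Msx1 is negative in it, so a positive value means higher where Msx1 was lower. It rests on the same 6 libraries as the litter differences and is no separate evidence. No member passed: the smallest adjusted p in the authors' deposited table was 0.410, for Col6a3, whose log2 fold change there was 0.76 ± 0.23 (SE as deposited; unadjusted p = 0.000899). Col1a2 had 0.25 ± 0.11 (unadjusted p = 0.0242) and Col25a1 had 0.46 ± 0.21 (unadjusted p = 0.0323) in the authors' deposited table. These 3 of 44 members were under an unadjusted p of 0.05, all positive, beside 0.875% of its genes that were positive and 0.971% negative. An adjusted p of 0.05 was passed by 0.0961% of genes in the authors' deposited table. Over the 28 members tested above, 17 were positive and 11 negative with a median of 0.04, beside 50.8% positive and a median of 0.003 over the 12152 genes.

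**Figure D5:**
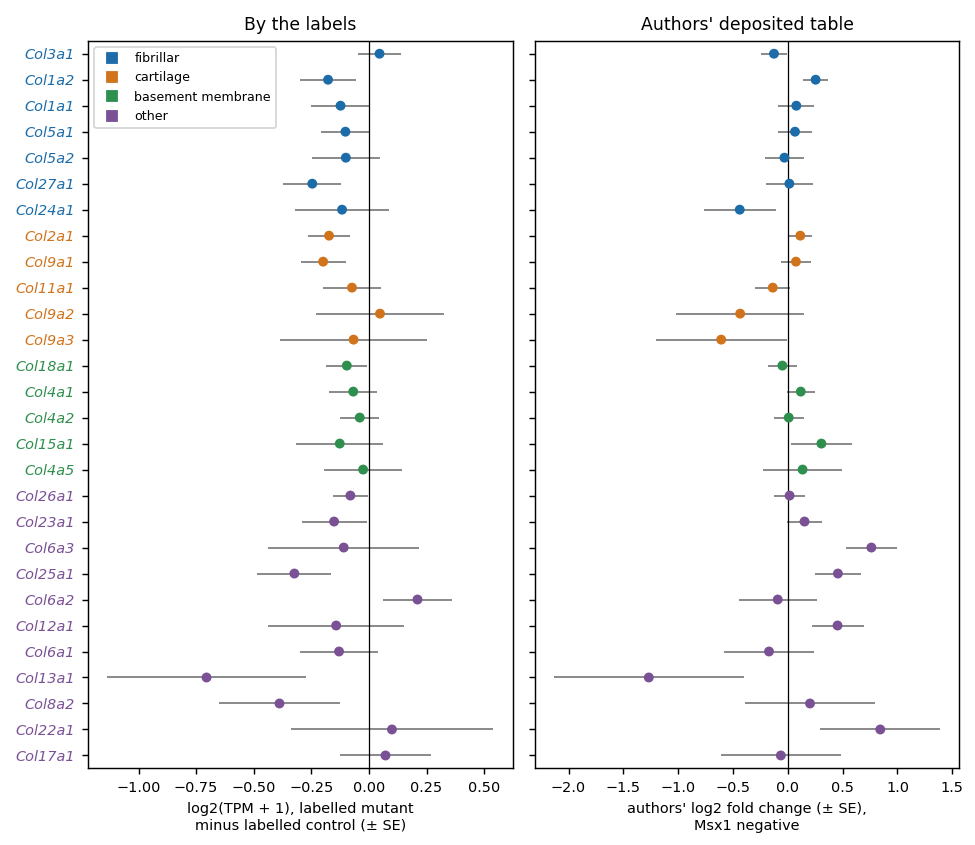
Left, log2 difference between libraries labelled mutant and control (limma, ± SE) for 28 collagen genes. Right, the log2 fold change and SE of the authors' deposited table, where Msx1 is negative. Points left of 0 prevail on the left, 23 of 28, and in the right panel Col6a3, Col25a1 and Col1a2 stand furthest right of 0 relative to their SE.

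The authors' base mean, the average of scaled counts over libraries, shows how much lies behind these values. In the authors' deposited table it was 2605 for Col1a2, 315 for Col6a3 and 335 for Col25a1. It was 72.6 for Col6a1 and 28.7 for Col13a1, and at most 1.501 for Col4a3, Col5a3, Col6a4, Col6a5 and Col28a1, the 5 members without an adjusted p there.

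Among members with a mean above 5 TPM, Col6a3 had the widest litter difference on the log2(TPM + 1) scale. For Col25a1 the low and high Msx1 libraries did not overlap. The 250 bases before the RefSeq start (GRCm38.p6) are shown for both genes. No annotated exon lies in either window, and that of Col25a1 lies inside the longer GENCODE gene. The CCAAT box (CCAAT) and the GC box (GGGCGG), on either strand, stand in capitals where found. TATAAA and TAATTG, the latter a site bound by Msx-type homeodomains, were searched on both strands too.
Col6a3, chr1:90843972-90844221, minus strand: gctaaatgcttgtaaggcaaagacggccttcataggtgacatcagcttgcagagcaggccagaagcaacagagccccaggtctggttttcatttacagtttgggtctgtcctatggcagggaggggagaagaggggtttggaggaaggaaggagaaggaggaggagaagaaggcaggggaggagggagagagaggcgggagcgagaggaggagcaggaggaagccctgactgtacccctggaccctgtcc
Col25a1, chr3:130180595-130180844, plus strand: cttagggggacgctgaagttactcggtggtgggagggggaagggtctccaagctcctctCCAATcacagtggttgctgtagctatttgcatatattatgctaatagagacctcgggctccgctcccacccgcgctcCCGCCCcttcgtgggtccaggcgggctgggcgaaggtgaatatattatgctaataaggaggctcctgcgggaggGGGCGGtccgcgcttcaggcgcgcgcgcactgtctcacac
The Col6a3 window held none of the 4 motifs. The Col25a1 window held 1 CCAAT and 2 GGGCGG. Of 32851 windows of this length in the table, 33.8% held CCAAT, 32.7% GGGCGG, 12.4% TATAAA and 7.17% TAATTG. The Col25a1 window also holds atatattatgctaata in 2 copies, whose first bases lie at -161 and -75 from the start. Any direct repeat of 16 bases, the length of this one, is held by 1.98% of windows. Among the members, the Col9a1 window holds such a repeat as well. Of the 35 members with a window, Col11a2, Col17a1 and Col28a1 held TAATTG.

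Genes that modify, carry and cross-link collagen gave no call. Of a list of 33 such genes, 27 were tested, and limma called 0 between the labels. In sign, 21 of the 27 were lower and 6 higher under the mutant label, beside 65.4% of all genes that were lower. None of the 27 passed in the authors' deposited table, where their median was -0.02. There 12 were positive and 15 negative, beside 50.8% of all genes tested that were positive. Along Msx1, 2 of the 27 were higher in the low Msx1 library of every litter (Bmp1 and Serpinh1, the latter not when libraries were scaled to equal totals) and 4 were lower (P4ha2, Plod1, Plod2 and Loxl2), beside the shares of 10.81% and 11.9% of all genes given above. Serpinh1, the chaperone of folding collagen, was at 157, 155 and 150 TPM in the mutant-labelled libraries (litters 1, 2 and 3) and at 156, 166 and 204 TPM in the control-labelled ones. Its highest library was the low Msx1 library of litter 3, the one with the most Col1a2 and Col2a1 as well. Bmp1, the protease that trims procollagen ends, was higher in each low Msx1 library, at 10.03, 7.99 and 11.99 TPM against 8.41, 6.06 and 7.78 TPM. Plod2, which hydroxylates lysine for cross-linking, was lower in each, at 18.5, 18.5 and 22.3 TPM against 25.3, 20.2 and 25.4 TPM, and so was the cross-linking oxidase Loxl2, at 19.8, 20.6 and 19.7 TPM against 23.6, 22.6 and 23.5 TPM. Bmp1, Plod2, Serpinh1 and Loxl2 had the smallest p of the list in the authors' deposited table, at unadjusted p = 0.0851, 0.0947, 0.127 and 0.142. Lox, the main cross-linking oxidase gene of mature matrix, had a mean of 0.521 TPM.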

How the data were processed

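Polyadenylated RNA of 6 distal mandibles was sequenced, and the authors deposited 1 TPM value per gene and library. Salmon 1.5.2, DESeq2 and mm10 stand in the submitters' processing notes, with no role or setting. Which annotation and filters were used is not given in the sources used here. Over 21827 listed genes TPM sum to 716208 to 735601 per library. TPM keep no depth, so precision comes from the spread between embryos.

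The authors' deposited comparison table gives, per the file headers, a base mean (a signal of scaled counts), a log2 fold change with its standard error, a Wald score (not used) and unadjusted and adjusted p-values. They are printed as the authors' values. Missing adjusted p-values stay missing.

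The labelled comparison was fitted with limma 3.58.1 (R 4.3.3, variance trend, robust moderation) on log2(TPM + 1), for the 12152 genes that reached 1 TPM in 3 or more libraries, with Benjamini-Hochberg adjustment at 0.05 over all of them. It was tested on simulated data, with differences larger than any collagen gene showed between the labels. That run cannot tell how often differences as small as theirs would be called. A fold change on this scale understates low genes. An exact permutation test of 3 against 3 cannot give a p below 0.1, so none was used. Alternatives changed the pseudocount, filter, scaling, moderation, litter block and libraries.

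Litter pairs the libraries, since the design text has both embryos of a pair from 1 litter. Deviations from the label means of littermates correlated at -0.05, -0.03 and -0.03 across genes. For mutant-labelled and control-labelled libraries of different litters the values were -0.02 to 0.05, so littermates were no more alike by this measure.

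Named genes are members with a mean of at least 10 TPM, partner chains, the 3 smallest p of either comparison, members with 1 sign in all 3 litters and, of the collagen processing list, the 4 smallest p. Col13a1, Col15a1, the other low members and Lox were named after their values were seen. Members, groups and lists were chosen with earlier results of these data known. Coordinates are GENCODE M21 (GRCm38, the mm10 assembly). Some marker results are not reported here.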

Additional observations from a re-analysis of the deposited data

How the results depend on the processing

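The sensitivity settings left 0 collagen genes called between the labels throughout. With single libraries left out, calls over all genes were 0 to 1 higher (Gm5244, when litter 1's control-labelled library was dropped) and 0 to 1 lower (Rpl29, when its mutant-labelled one was), and 19 to 25 members were lower in sign. With litter as a replicate block the counts were 0 higher and 0 lower, the median of the members was -0.11, and no call changed. The median of the 28 members moved to -0.042 with median-of-ratios scaling and -0.053 with quantile normalization, and ran from -0.17 to -0.073 over the left-out libraries (-0.17 without litter 2's control-labelled library). These scalings remove an offset of the whole transcriptome. They turned Col4a1 to 0.0016 and 0.00046, Col4a2 to 0.029 and 0.024, and Col4a5 to 0.022 and 0.029, respectively. Over the left-out libraries the sign was not stable for Col3a1 (-0.033 to 0.095), Col4a1 (-0.11 to 0.0059), Col4a5 (-0.10 to 0.051), Col6a3 (-0.49 to 0.13), Col9a2 (-0.23 to 0.30), Col9a3 (-0.37 to 0.21), Col11a1 (-0.16 to 0.028), Col12a1 (-0.40 to 0.094), Col22a1 (-0.16 to 0.56) and Col24a1 (-0.25 to 0.038), none of them called. Counts of members with 1 sign in every litter, examined under other scalings after the data were seen, were 10 higher and 5 lower with median-of-ratios scaling and 9 and 5 with quantile normalization. Depth is unknown, and p-values rest on 3 embryos per label.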
